A study of Mus musculus with 18 samples.

Results

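Serotonin neuron genes are described here in mice across 2 regions: the oculomotor nucleus, a midbrain motor nucleus, and cervical spinal cord. The 6 genes were chosen by symbol from the array's probe annotation: the serotonin transporter Slc6a4, the synthesis enzymes Ddc and Gch1, and the transcription factors Gata2, Gata3 and Fev. Of these, 5 genes had at least 1 probe set, 7 in all, among 22626 probe sets and 12393 genes with a symbol; Fev was not analysed here. Every array carried biotin-labelled cRNA from total RNA on the Affymetrix 430A chip. The samples came from a mouse model of amyotrophic lateral sclerosis, a disease in which spinal motor neurons degenerate while eye-movement motor neurons are relatively spared. Each region was sampled in 3 groups: 6-week mutants, 10-week controls and 10-week mutants. Controls of 6 weeks were not analysed here. The labels name neither the mutated gene, the strain nor any pooling of animals. They do not say that replicates were separate animals, so a p-value here speaks only to how far these samples vary, which may be technical.

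Serotonin neurons of the brain sit in the raphe nuclei of the brainstem, and the dorsal raphe begins close to the oculomotor nucleus. They make serotonin from tryptophan in a hydroxylation step that needs tetrahydrobiopterin, followed by decarboxylation, and they take it back up through the serotonin transporter. Their axons reach the spinal cord, but transcripts stay mainly in the cell bodies, and Gata2, Gata3 and Fev act in the program that forms these neurons.

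The promoters of the genes are shown to place the GATA-type and ETS-type letters, the motif families of Gata2 and Gata3 and of Fev, relative to each start. Sequences are from RefSeq (build GRCm38.p6) and give the 250 bases before an annotated start on the gene's own strand, 5′ to 3′, with matches in capitals. Both strands were searched for 4 spellings of the GATA-type motif, namely AGATAA or its variant AGATAG, besides TGATAA or its variant TGATAG, and for 2 spellings of the ETS-type motif, CCGGAA or its variant CAGGAA.
Slc6a4: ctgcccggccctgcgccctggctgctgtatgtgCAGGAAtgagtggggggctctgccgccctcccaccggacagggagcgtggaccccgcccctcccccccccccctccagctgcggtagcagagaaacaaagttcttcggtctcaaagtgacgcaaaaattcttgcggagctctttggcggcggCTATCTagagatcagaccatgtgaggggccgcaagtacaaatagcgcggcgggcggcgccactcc
Gch1: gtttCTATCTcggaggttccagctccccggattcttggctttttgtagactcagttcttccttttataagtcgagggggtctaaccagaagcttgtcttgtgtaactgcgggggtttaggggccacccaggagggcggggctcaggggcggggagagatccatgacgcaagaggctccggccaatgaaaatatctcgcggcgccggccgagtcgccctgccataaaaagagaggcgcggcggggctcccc
Gata3: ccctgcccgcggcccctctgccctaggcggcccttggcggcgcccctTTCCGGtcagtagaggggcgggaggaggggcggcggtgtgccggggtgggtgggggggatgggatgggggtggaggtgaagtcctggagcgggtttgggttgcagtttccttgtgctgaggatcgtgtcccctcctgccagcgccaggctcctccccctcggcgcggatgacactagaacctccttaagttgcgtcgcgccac
Fev: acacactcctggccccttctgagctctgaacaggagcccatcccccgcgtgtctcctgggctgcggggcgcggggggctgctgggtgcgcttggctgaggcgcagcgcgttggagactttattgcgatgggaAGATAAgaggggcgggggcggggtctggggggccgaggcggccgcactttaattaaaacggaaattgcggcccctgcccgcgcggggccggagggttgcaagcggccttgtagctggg
The Slc6a4 window, chr11:76998347-76998596 on the plus strand, held 1 GATA match 65 to 60 bases before the start and 1 ETS match 217 to 212 bases before it. The Gch1 window, chr14:47189414-47189663 on the minus strand, held a GATA match 246 to 241 bases before the start. The Gata3 window, chr2:9878601-9878850 on the minus strand, held an ETS match 203 to 198 bases before the start. The Fev window, chr1:74885409-74885658 on the minus strand, held a GATA match 118 to 113 bases before the start. Both Ddc windows and both Gata2 windows held none of these letters. Among 32851 promoter windows of the same length, 26.5% held a GATA match and 35.1% an ETS match, so the matches are common and describe letters only. The Slc6a4 window was 64.8% G and C and the Gata3 window 70.0%, against a median of 52.4% over all windows, while the first Ddc window was 40.8%.

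Of 18 arrays, 17 were used. Control spinal cord replicate 1 correlated with the other arrays at only 0.0179 to 0.0215 and was left out by the rule that chose the genes; the others correlated at 0.944 to 0.992 with one another. Their median signals lay between 207.1 and 226.0. Prolactin, a pituitary hormone, was high on 2 oculomotor arrays, control replicate 3 (signal 3008) and 10-week mutant replicate 2 (2209), and lay at 17.9 to 304.6 on the other oculomotor arrays. Growth hormone (Gh) was highest on the same arrays, 2933.8 and 13207, but also exceeded the spinal maximum of 144.8 on 5 of the other 7 oculomotor arrays, reaching 1045.1 in 6-week mutant replicate 1. Pomc and Cga were at 6756.4 and 1134.1 on 10-week mutant replicate 2, and at most 381.8 and 185.9 on any other oculomotor array. Values without both high-prolactin arrays therefore leave some pituitary transcripts in; they are given beside the oculomotor genotype and age results, the ratios and the relations, and the part of pituitary tissue in those results was not tested. The regions were told apart by position genes: 6 of 6 tested Hox genes of the spinal list were lower in the oculomotor nucleus. Defining genes of cholinergic motor neurons were also lower there, 5 of 5 tested, with Slc18a3 at -1.85 on the log2 scale in the mean of the 3 conditions. Over all 13576 tested sets, 2406 were called lower in that mean. Hoxa5, Hoxb5, Hoxb6, Hoxc8 and Hoxd8 passed the filter on low signal, at 7.38, only through spinal signal (oculomotor means 5.63 to 6.29, log2). So did Prph, Chodl and Slc5a7 (6.75 to 7.19), so both counts are a description. Without the filter 7 of 7 measured Hox genes and 6 of 7 motor neuron genes were called lower, against 2756 of 22626 sets. Of 6 oculomotor motor neuron genes 4 were measured, and only Slc18a3 was tested. Mean signals in the oculomotor nucleus and spinal cord were 54.2 and 52.1 for Phox2a, 49.2 and 90.4 for Isl1, and 78.4 and 84.3 for Tbx20. Without the filter 0 of the 4 measured genes were called higher in the oculomotor nucleus.

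Slc6a4, which returns released serotonin to the neuron, had the largest regional change of the genes. In the oculomotor nucleus its signal on the 3 arrays was 975.3, 710.4 and 1103.1 in 6-week mutants, 1390.9, 1161 and 1198 in 10-week controls, and 2098.2, 2640.1 and 1986.2 in 10-week mutants. In spinal cord it was 6.7, 15.1 and 10.2 in 6-week mutants, 6.7 and 7.2 in 10-week controls, and 6.7, 18.8 and 6.7 in 10-week mutants. All 9 oculomotor arrays lay above all 8 spinal arrays, and the 3 oculomotor groups did not overlap each other, with 10-week mutants highest and 6-week mutants lowest. The 3 spinal groups overlapped. Each change was computed on log2(signal + 25) with limma over 13576 probe sets and called at an adjusted p under 0.05. The oculomotor excess was 4.73 ± 0.17 (SE; adjusted p = 3.5e-12) in 6-week mutants, 5.31 ± 0.20 (3.16e-12) in controls and 5.99 ± 0.17 (4.77e-14) in 10-week mutants. Every spinal signal lay below the offset of 25, so the size depends on it. With an offset 4 times larger the changes were 3.20, 3.65 and 4.39, and with values floored at 25 they were 5.19, 5.64 and 6.48. In bulk tissue, fewer cells of a type and less RNA per cell cannot be told apart.

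**Figure D1:**
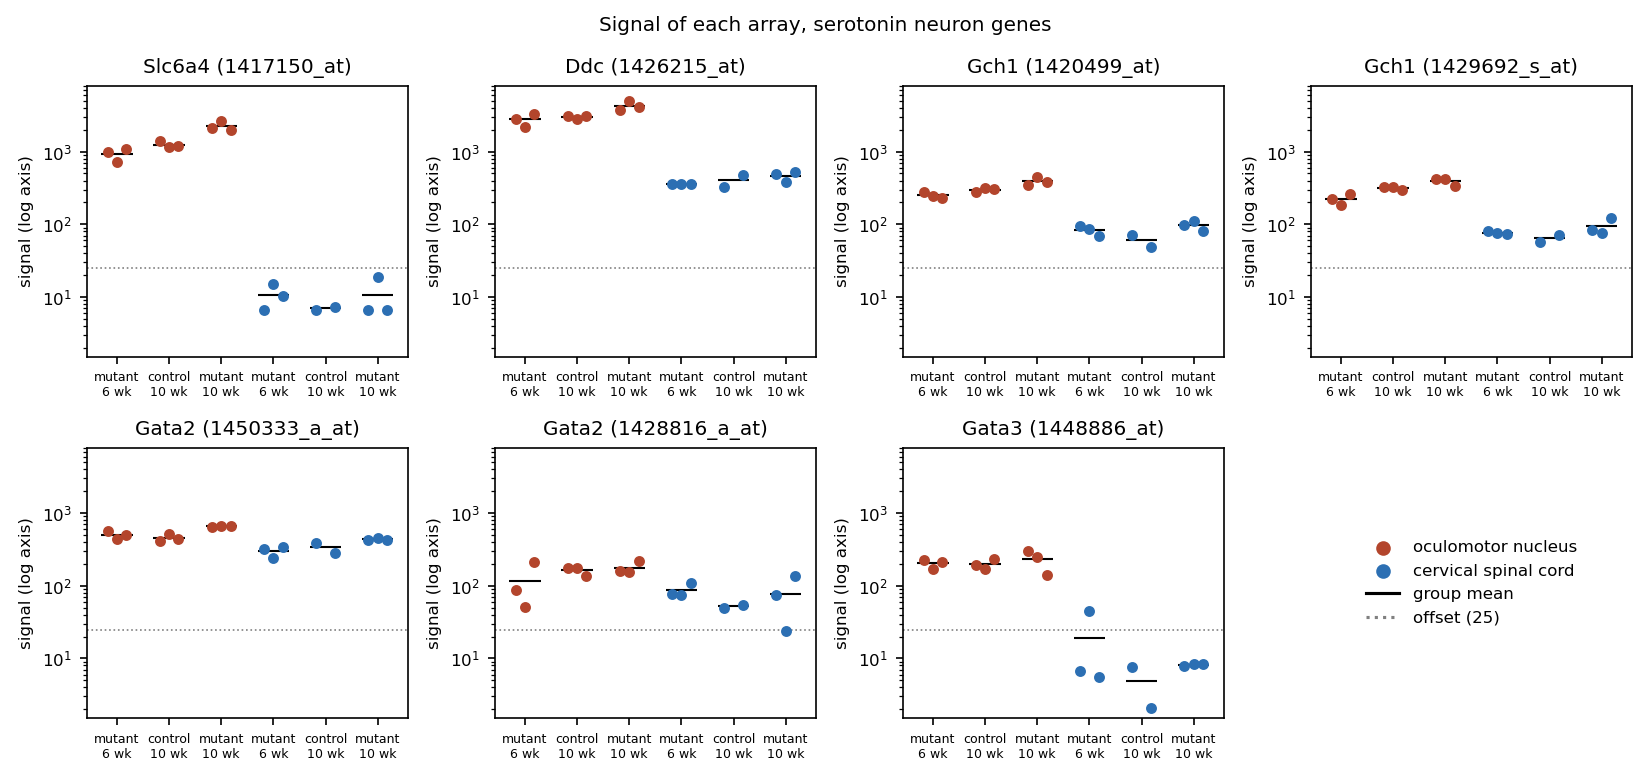
Signal of each array (log axis) for the 7 probe sets, by region, genotype and age; points are arrays, bars are group means and the dotted line is the offset of 25. Slc6a4 and Gata3 lie near or below the offset in spinal cord, and Slc6a4 in the oculomotor nucleus has a mean of 930 in 6-week mutants and 2242 in 10-week mutants.

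Ddc, which decarboxylates the precursors of serotonin and of dopamine, had signals well over the offset in both regions and far higher ones in the oculomotor nucleus. Oculomotor signals were 2811.9, 2186 and 3331.8 in 6-week mutants, 3101.6, 2841.6 and 3054.1 in 10-week controls, and 3786.1, 4974 and 4071 in 10-week mutants. Spinal signals were 353.6, 353.5 and 357 in 6-week mutants, 327.4 and 475 in controls, and 485.9, 384.2 and 524.4 in 10-week mutants. All oculomotor arrays were above all spinal ones, the 10-week mutants were highest in the oculomotor nucleus, and the other two oculomotor groups overlapped. The regional change was 2.86 ± 0.15 (SE; adjusted p = 1.95e-10), 2.85 ± 0.17 (1.95e-09) and 3.14 ± 0.15 (1.16e-10) in the same order of groups by limma.

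Gch1 makes the first committed step toward tetrahydrobiopterin, the cofactor of the tryptophan and tyrosine hydroxylases. Of its 2 sets, the one with the plain suffix _at read 277.5, 244.7 and 226.7 in oculomotor nucleus of 6-week mutants, 277, 318.3 and 303 in controls, and 342.2, 453.3 and 385.7 in 10-week mutants. Spinal signals of that set were 94.1, 86 and 69.5, then 72 and 48.6, then 97.7, 112.3 and 79.8, in the same order. The other set, whose suffix _s_at marks probes that can match more than 1 transcript, ranged from 187 to 423.9 in the oculomotor nucleus and from 56.7 to 123 in spinal cord. On both sets every oculomotor array lay above every spinal array. The regional changes of the first set were 1.35 ± 0.16 (SE), 1.94 ± 0.18 and 1.78 ± 0.16, and those of the second were 1.29 ± 0.16, 1.93 ± 0.18 and 1.84 ± 0.16, all called by limma (adjusted p from 2.47e-07 to 1.35e-05). The sets differed from each other by less than these errors in each condition. Their sizes moved more than that with scaling, offset and the arrays used. Over those alternatives, without control spinal cord replicate 1, the first set ranged from 0.93 to 1.59 in 6-week mutants. It ranged from 1.32 to 2.34 in controls and from 1.33 to 2.03 in 10-week mutants.

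Gata3, a zinc-finger factor of the GATA family, had signals that split the regions without overlap. Oculomotor signals were 228.4, 169.2 and 213.2 in 6-week mutants, 195.2, 168.3 and 237.1 in controls, and 303.2, 251.3 and 140.1 in 10-week mutants. Spinal signals were 6.7, 44.7 and 5.5, then 7.6 and 2.1, then 7.9, 8.3 and 8.4. Every oculomotor array exceeded every spinal one, and the 3 oculomotor groups overlapped. In the fit without the filter on low signal, which removed this set, the regional changes were 2.48 ± 0.29 (SE; adjusted p = 2.7e-05), 2.91 ± 0.33 (2.6e-05) and 2.89 ± 0.29 (6.19e-06) by limma. With an offset 4 times larger they were 1.36, 1.51 and 1.58.

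Gata2, which precedes Gata3 in several lineages, differed less between regions. The brighter of its 2 sets read 561.7, 440.2 and 493.1 in oculomotor nucleus of 6-week mutants, 411.7, 512.1 and 439.9 in controls, and 644.9, 660.5 and 670.6 in 10-week mutants. Spinal signals were 315.8, 241.7 and 339.4 in 6-week mutants, 392.4 and 283.9 in controls, and 430.5, 447.9 and 422.9 in 10-week mutants. Within each condition the regions did not overlap, yet spinal signals of 10-week mutants reached into the oculomotor range of controls. The regional change passed in 6-week mutants (0.70 ± 0.14 SE; limma adjusted p = 0.00108) and 10-week mutants (0.58 ± 0.14; 0.00594). In controls it was 0.41 ± 0.15 (limma adjusted p = 0.0845), and it turned on single spinal arrays: without control replicate 2 it was 0.63 (0.0449) and without control replicate 3 it was 0.20 (0.559). The dimmer set ranged from 51.2 to 219.4 in the oculomotor nucleus and from 24.1 to 134.9 in spinal cord. It gave changes of 0.18, 1.27 and 1.12 without the filter, none called (limma adjusted p from 0.0688 to 0.815). In 10-week mutants it was called at 1.52 without spinal replicate 3 (limma adjusted p = 0.0184) and was at 0.67 without spinal replicate 2 (0.271). In controls it was called in the fit of these arrays alone (1.27; limma adjusted p = 0.0131). The 2 sets thus differ in how clearly they separate the regions.

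**Figure D2:**
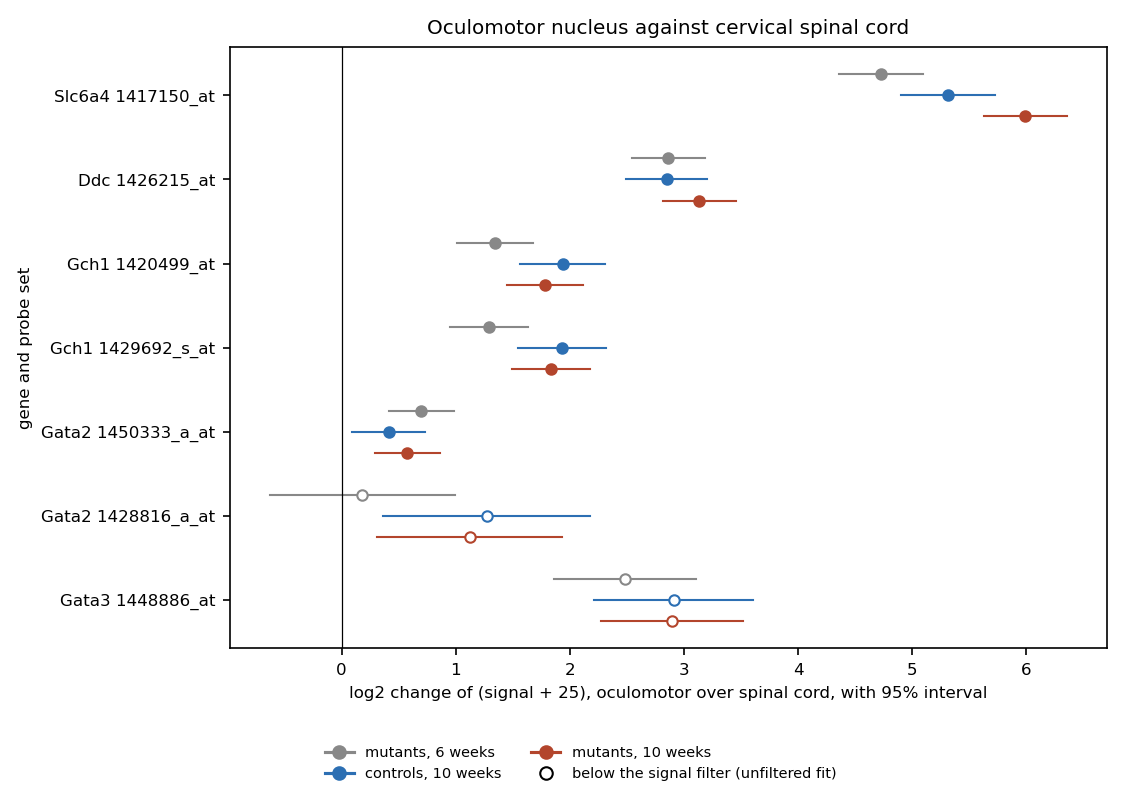
Regional change (log2, oculomotor nucleus over spinal cord) of each probe set in 3 conditions, with 95% intervals; open points are sets below the signal filter, taken from the fit without it. Slc6a4 was largest, at 4.73 to 5.99, followed by Ddc and Gata3, then Gch1 and then Gata2. In controls Gata3 (2.91) lay above Ddc (2.85), and the size for Gata3 depends on the offset.

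Without the filter on signal, 6 of 7 member sets were called higher in oculomotor nucleus of 6-week mutants, 5 of 7 in controls, 6 of 7 in 10-week mutants and 7 of 7 in the mean of the 3 conditions, against 15.0%, 7.84%, 11.9% and 25.3% of 22626 sets called in either direction. With the filter, 5 sets were tested, and the counts were 5, 4, 5 and 5 against backgrounds of 23.9%, 13.5%, 19.3% and 37.7%. Slc6a4 and both Gch1 sets passed that filter only through their oculomotor signal. Their spinal means on the log2 scale were 5.11, 6.73 and 6.70, below the limit of 7.38, so the filtered counts are a description and support nothing. The genes were chosen with earlier results of these data known, so all these counts are a description. Gch1 and Gata2 enter them with 2 sets each where unfiltered. Every oculomotor array exceeded every spinal array for 6 of 7 sets in 6-week mutants, 7 of 7 in controls and 7 of 7 in 10-week mutants, where 17.6%, 20.5% and 13.0% of all sets did so. The mean changes over the conditions were 5.35 ± 0.11 (SE) for Slc6a4, 2.95 ± 0.09 for Ddc, 1.69 ± 0.10 for both Gch1 sets and 0.56 ± 0.08 for the brighter Gata2 set.

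Other genes of serotonin neurons were read from a list of 18, of which 13 were measured and 6 tested. In the mean regional comparison, where 37.7% of all tested sets were called and 20.0% were called higher, 3 were called higher and 1 lower on the oculomotor side, and the list's median change was 0.42 against 0.02 over all tested sets. The floor-plate and hindbrain factor Foxa2 (1.44), the midbrain-hindbrain factor En2 (1.22) and the serotonin autoreceptor gene Htr1a (0.75) were higher, and the homeobox gene Nkx2-2 (-0.47) was lower. Foxa2 and En2 passed the filter only through their oculomotor signal (spinal means 6.95 and 6.75, log2), so the filtered count is a description. Without the filter 5 of the 13 measured genes were called higher and 1 lower, against 13.1% of all sets called higher. Mean signals in the oculomotor nucleus and spinal cord were 264.3 and 43.2 for En1 and 147.8 and 74.0 for Insm1. They were 57.5 and 50.9 for Lmx1b, 344.6 and 347.1 for Htr1b, and 79.0 and 81.2 for Crhr2. Maoa, which breaks down serotonin, was at 0.09 and not called. Tph1, the tryptophan hydroxylase best known from pineal gland and gut, read 55.4 to 87.5 in the oculomotor nucleus and 37.9 to 91.0 in spinal cord, with no separation of the regions. Its mean change was 0.04 (limma adjusted p = 0.887 without the filter). The neuronal hydroxylase gene Tph2 and the vesicle transporter gene Slc18a2 were not analysed here.

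Among the other genes of tetrahydrobiopterin synthesis and recycling, 1 of 4 tested was called. Pcbd1, which regenerates the cofactor after use, was higher by 1.12 ± 0.09 (SE; limma adjusted p = 8.59e-09), while Pts (0.19), Spr (0.11) and Qdpr (-0.03) were not called. Of 13 measured serotonin receptor genes 4 were tested, and Htr1a and Htr2c (0.53) were called higher. The other GATA factors, Gata1, Gata4, Gata5 and Gata6, had mean changes of -0.04 to 0.07 without the filter, and none was called.

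Several of the genes also belong to other cell types, so markers of those types were read beside them, against the same 20.0% of tested sets called higher. Ddc and Gch1 are shared with dopamine neurons, whose list had 5 of 7 tested genes called higher in the mean regional comparison, with a median of 1.47. The dopamine transporter gene Slc6a3 was at 3.31, Th, the rate-limiting enzyme of dopamine synthesis, at 2.77, the receptor gene Chrna6 at 1.68 and the factor gene Nr4a2 at 1.47. Slc6a3, Nr4a2 and Chrna6 passed the filter only through their oculomotor signal (spinal means 7.18, 7.09 and 6.70, log2), so the filtered count is a description. Without the filter 9 of the 11 measured dopamine genes were called higher, against 13.1% of all sets. The summed signal of the 11 measured dopamine genes lay at 6302.5 to 9248.3 on oculomotor arrays and at 4030.3 to 4629.1 on spinal arrays. Their part in the Ddc and Gch1 differences was not tested. Gata2 and Gata3 are also expressed in inhibitory neurons, whose list had 4 of 6 tested genes higher: Gad2 (1.47), the factor gene Tal1 (1.07), Gad1 (0.81) and Zfpm2 (0.64). Slc32a1 was not called, with mean signals of 1380 in the oculomotor nucleus and 1489 in spinal cord. Slc6a5 averaged 86 and 190 and Tal2 39 and 59, in the same order. Without the filter 7 of 11 measured genes of this list were called higher and 1 lower, against 13.1% of all sets called higher. That list's summed signal was 7096.5 to 9280.0 in the oculomotor nucleus and 4862.0 to 5813.0 in spinal cord, and its part in the GATA differences was not tested. Of the noradrenaline neuron genes only Dbh, which makes noradrenaline from dopamine, was tested. Dbh, too, passed the filter only through its oculomotor signal (spinal mean 7.20, log2). It was called higher in the oculomotor nucleus of 6-week mutants (0.97 ± 0.27 SE; limma adjusted p = 0.0143), and was at -0.04 in controls, 0.29 in 10-week mutants and 0.41 in the mean, none of these called. Endothelial genes, read because vessel cells express Gata2, had 0 of 9 tested higher and 1 lower, Emcn at -0.30. Blood cell genes had 0 of 2 tested higher and 1 lower, Alas2 at -1.40.

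In the oculomotor nucleus of 10-week animals, Slc6a4 was higher in mutants and the other genes did not pass the test. Slc6a4 averaged 2242 ± 350 (SD, n = 3) in mutants and 1250 ± 123 (n = 3) in controls, with no overlap, a change of 0.82 ± 0.17 (SE; limma adjusted p = 0.0212), or 1.77-fold. This was 1 of 5 tested member sets, where 1.47% of all sets were called. The call was lost without any of control replicates 1, 2 or 3 or mutant replicates 1 or 2 (0.70 to 0.90; limma adjusted p from 0.0541 to 0.117), and without both high-prolactin arrays (0.67; 0.256). It was also lost without the signal filter (0.82; 0.0564).

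The other genes stood at 0.50 ± 0.15 for Ddc (SE; limma adjusted p = 0.106), 0.36 ± 0.16 and 0.31 ± 0.16 for the Gch1 sets (0.288 and 0.397) and 0.52 ± 0.14 for the brighter Gata2 set (0.0674). Gata3 was at 0.14 and the dimmer Gata2 set at 0.10 without the filter. In a fit of these arrays alone Ddc and the brighter Gata2 set were called too (limma adjusted p 0.0279 and 0.0311). Without both high-prolactin arrays, an alternative chosen after seeing the data, that fit gave Ddc 0.40 (limma adjusted p = 0.102) and Gata2 0.50 (0.155), neither called, and kept the call of Slc6a4 (0.67; 0.0426). The brighter Gata2 set was also called with quantile normalization (0.55; 0.0478). Every mutant array exceeded every control array for 5 of 7 sets, against 10.7% of all sets. Among the other serotonin genes none of 6 tested was called, and Th was at 0.04 and Slc6a3 at -0.31.

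In spinal cord the genotype comparison called none of the 5 tested sets, where 0.0221% of all sets were called. The values were 0.14 ± 0.20 (SE) for Slc6a4, 0.21 ± 0.17 for Ddc, 0.52 ± 0.18 and 0.40 ± 0.18 for Gch1 and 0.35 ± 0.15 for Gata2 (limma adjusted p from 0.288 to 0.832). Every mutant array was higher for 4 of 7 sets, against 17.9% of all sets, with 3 arrays set against 2. These were both Gch1 sets, the brighter Gata2 set and Gata3, whose signals on these arrays all lay below the offset. The difference between the regions in their genotype change called 0 of 5 tested sets and 0% of all sets (limma). Every spinal Slc6a4 signal lies below the offset, which holds its spinal changes near 0, and for Slc6a4 that difference was 0.68 ± 0.26 (SE; limma adjusted p = 0.747), so its genotype change was not shown to differ between regions.

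With age in mutants, Slc6a4 rose in the oculomotor nucleus. Its mean signal was 930 ± 200 (SD, n = 3) at 6 weeks and 2242 ± 350 (n = 3) at 10 weeks, a change of 1.26 ± 0.17 (SE; limma adjusted p = 0.0118), or 2.39-fold. It was 1 of 3 sets called among 13576 (0.0221%). The call was lost without 6-week mutant replicate 2, the lowest array (1.08; limma adjusted p = 0.062), and without 10-week mutant replicate 2, the highest (1.14; 0.0926), which also had high prolactin. It was lost too in a fit of these arrays alone (1.26; 0.0668) and without both high-prolactin arrays (1.14; 0.105). Summed signals of several marker lists moved with this comparison without overlap. Inhibitory neuron genes summed to 7096.5 to 7994.8 at 6 weeks and 8594.6 to 9280.0 at 10 weeks. The other tetrahydrobiopterin genes fell, from 10057.0 to 10904.9 at 6 weeks to 9095.6 to 9508.7 at 10 weeks. Blood cell genes rose, most of all through Alas2. The summed signal of the 9 measured blood genes lay at 738.8 to 1047.7 at 6 weeks and 1153.2 to 1388.7 at 10 weeks. Alas2, the heme synthesis enzyme of red cells, lay at 82.0 to 151.5 and 258.2 to 418.8, without overlap (1.32 ± 0.37 SE; limma adjusted p = 0.229, not called). The median of the 2 tested blood genes was 0.74 against 0.00 over all sets. Without the filter the median of the 9 measured blood genes was 0.15 against -0.01. From 6 to 10 weeks mean signal went from 69.1 to 114.2 for Cd3e, 62.1 to 63.1 for Hba-a1, 112.5 to 118.7 for Cpa3 and 21.8 to 15.9 for Cd4. The part of blood cells, or of the cells behind the other lists, in the Slc6a4 change was not tested. With no 6-week controls analysed here, age in mutants and age as such cannot be told apart.

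The remaining genes did not pass with age: Ddc was at 0.63 ± 0.15 (SE), the Gch1 sets at 0.60 ± 0.16 and 0.76 ± 0.16, and the brighter Gata2 set at 0.39 ± 0.14 (limma adjusted p from 0.1 to 0.387). With an offset 4 times larger the Gch1 set with the suffix _s_at was called at 0.61, just under the threshold (limma adjusted p = 0.049971). Every 10-week array exceeded every 6-week array for 5 of 7 sets, against 6.25% of all sets; Gata3 (0.12) and the dimmer Gata2 set (0.67) overlapped. Among dopamine neuron genes Slc6a3 was at -0.62 (limma adjusted p = 0.224) and Th at -0.27 (0.552). Slc18a3 of cholinergic neurons was at 0.52 (limma adjusted p = 0.144).

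In spinal cord of mutants, none of the 5 tested sets was called with age, where 2.75% of all sets were. Slc6a4 was at -0.01 ± 0.17 (SE), Ddc at 0.36 ± 0.15, the Gch1 sets at 0.17 and 0.21, and the brighter Gata2 set at 0.51 ± 0.14 (limma adjusted p = 0.05002, just over the threshold). With values floored at 25 that Gata2 set was called at 0.55 (limma adjusted p = 0.0494), and with a filter of 60% at 0.51 (0.0436). Every 10-week array was higher for 2 of 7 sets, Ddc and the brighter Gata2 set, against 13.8% of all sets. The age change of Slc6a4 differed between the regions by 1.27 ± 0.25 (SE; limma adjusted p = 0.0454), the 1 call among 5 tested member sets, with 0.368% of all sets called. Since every spinal signal of Slc6a4 lies below the offset, its spinal change is held near 0 on this scale, and the difference restates the oculomotor change rather than comparing 2 measured changes. That call was lost in 11 of the 12 fits that each left out 1 array, and only the fit without 6-week oculomotor replicate 3 kept it. In the fit with the replicate number as a block its limma adjusted p was 0.0509.

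**Figure D3:**
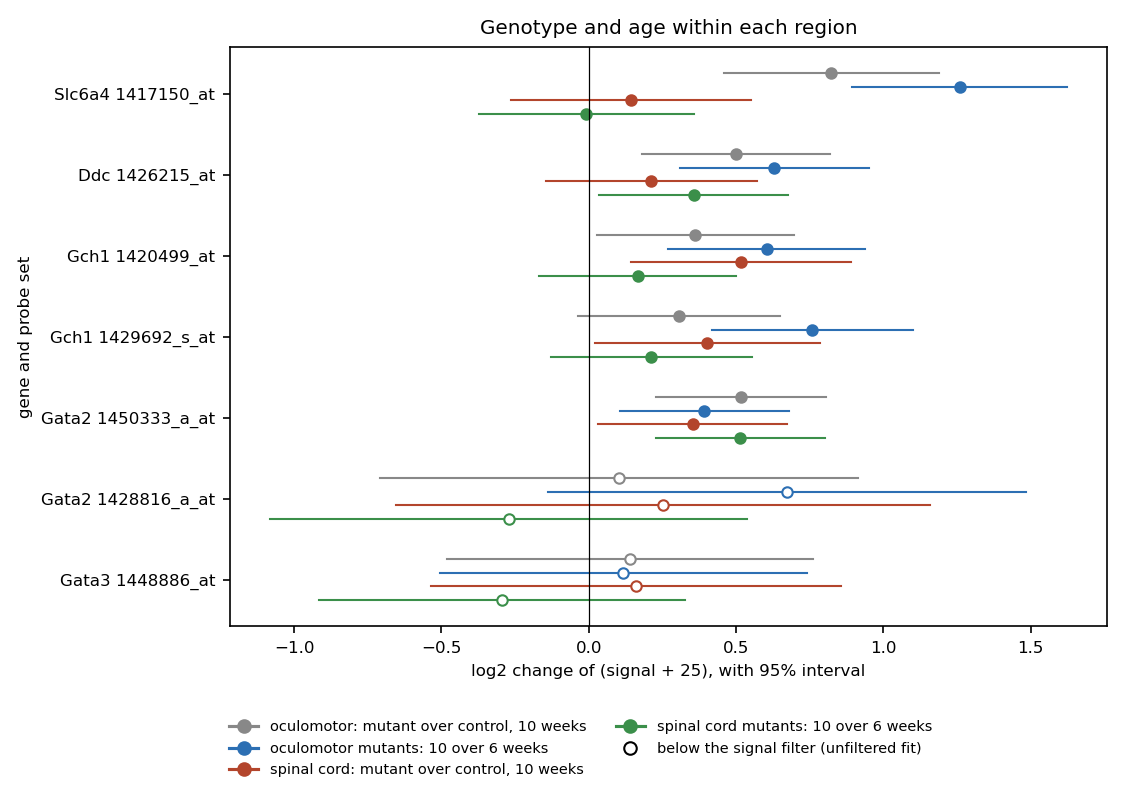
Log2 change of each probe set with genotype at 10 weeks and with age in mutants, in each region, with 95% intervals; open points are sets below the signal filter. Slc6a4 in the oculomotor nucleus is at 0.82 with genotype and 1.26 with age, while its spinal changes lie near 0.

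The oculomotor arrays were also compared by the ratio of Slc6a4 to other genes within each array, which removes anything that scales a whole array. The level of such a ratio has no meaning of its own, since the probes differ, and only its differences between groups are read. The log2 ratio of Slc6a4 to Slc6a3 was -0.58, -1.25 and -0.89 in 6-week mutants, 0.05, -0.20 and -0.34 in 10-week controls, and 1.10, 1.53 and 0.30 in 10-week mutants. The 3 groups did not overlap. Mutants of 10 weeks exceeded controls by 1.14 and 6-week mutants by 1.88, each with a two-sided exact permutation p of 0.1, the smallest that 3 arrays against 3 allow. The ratio to Th differed by 0.78 and 1.53, that to Ddc by 0.32 and 0.63, that to Gch1 by 0.46 and 0.66 and that to Gata3 by 0.68 and 1.14, again without overlap and at exact p = 0.1. The ratio to Gata2 overlapped between genotypes (0.31, exact permutation p = 0.3) and not between ages (0.87, exact p = 0.1). Without both high-prolactin arrays, also chosen after seeing the data, the ratio to Slc6a3 differed by 0.77 and 1.60, and all 12 differences kept their direction, from 0.18 to 1.60, with only the genotype ratio to Gata2 overlapping. These 12 comparisons share the 10-week mutant arrays, and none can pass 0.05 in this design.

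**Figure D4:**
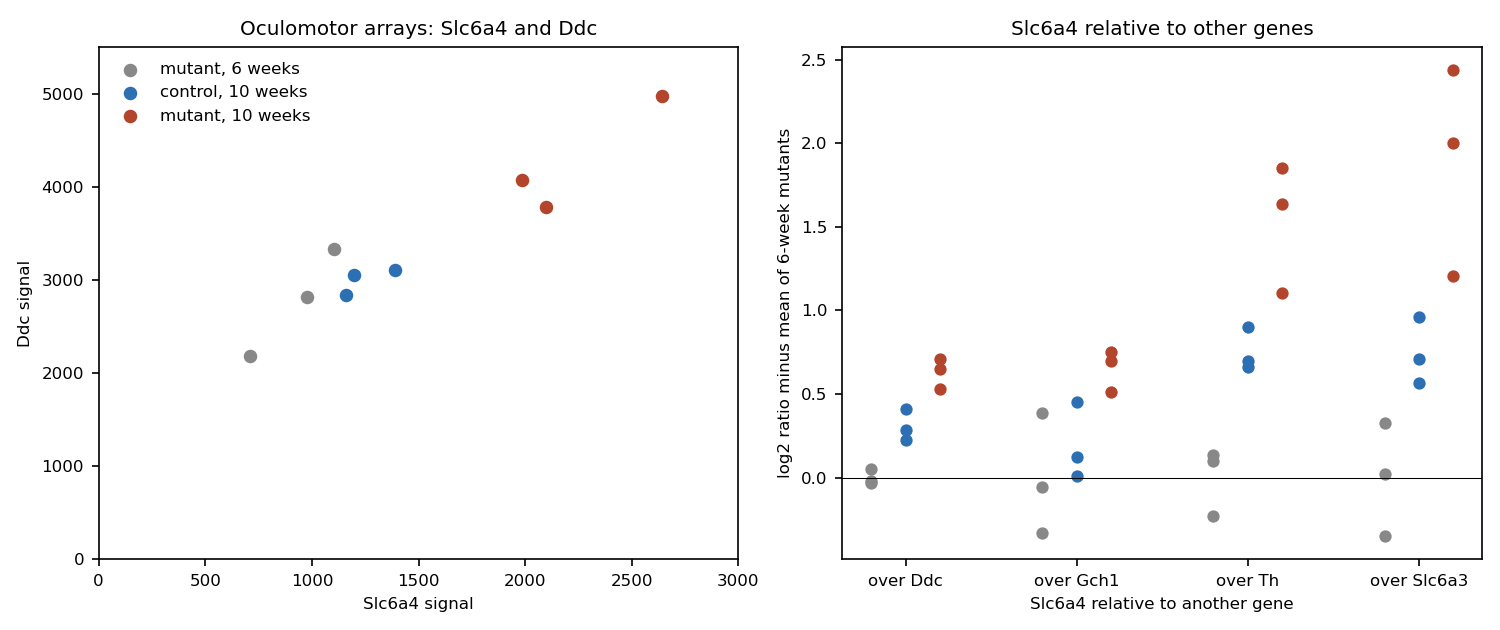
Left, Ddc against Slc6a4 signal on the 9 oculomotor arrays. Right, log2 ratio of Slc6a4 to Ddc, Gch1, Th and Slc6a3 within each array, set to a mean of 0 in 6-week mutants. The 10-week mutant arrays lie highest on each ratio.

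Across the 9 oculomotor arrays, 20 relations among the members and with Th and Slc6a3 were computed on the log2 scale, and 2 passed adjustment. On the 7 arrays without high prolactin none passed: Slc6a4 with Ddc had r = 0.932 (exact permutation p = 0.00377, adjusted 0.0754), Slc6a4 with Gch1 r = 0.792 (0.0361, adjusted 0.354) and Slc6a4 with Slc6a3 r = -0.563 (0.185, adjusted 0.437). Slc6a4 and Ddc had Pearson r = 0.956 (exact permutation p = 0.000223, adjusted 0.00446) and Spearman rho = 0.883 (exact p = 0.00308, adjusted 0.0615). Without the 2 arrays farthest from the median of Slc6a4, r was 0.931. On deviations from the 3 group means r was 0.939, with exact p = 0.0185 over orders within groups and 0.37 after adjustment. The 216 such orders allow no exact permutation p below 0.00463, so among 20 relations a single one could not pass adjustment alone. Slc6a4 and Gch1 had r = 0.867 (exact p = 0.00275, adjusted 0.0275) and rho = 0.8 (exact p = 0.0138, adjusted 0.138). Without the 2 farthest arrays their r was 0.758, and on deviations from group means it was 0.15 (exact p = 0.699), so this relation followed the group means. Slc6a4 and Slc6a3 ran in opposite directions at r = -0.726 (exact p = 0.0278, adjusted 0.0695) and rho = -0.667 (exact p = 0.0589, adjusted 0.236), at -0.228 without the 2 farthest arrays and -0.253 within groups.

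By likeness of pattern over the same 9 arrays, Slc6a4 was closest to Efcab2 (r = 0.963), Ddc (0.956) and Slc18a3 (0.941). Ddc was closest to Slc6a4 (0.956), Adh5 (0.943) and Slc18a3 (0.928). Gch1 was closest to Mtdh (0.969), Slc18a3 (0.931) and Tmem176a (0.917). For Gata2 the nearest were Cul9 (0.965), Ltbp3 (0.96) and Parl (0.933), and for Gata3 Higd1a (0.888), Ik (0.873) and Fam120b (0.864). These are the highest correlations among 13576 tested sets over few arrays in 3 groups, and are given as a description with no test.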

How the data were processed

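The deposited values are intensity signals, 1 per probe set, which the authors computed with Affymetrix Microarray Suite 5.0 per the series' labels. They are linear, and 2% trimmed means of 497.52 to 498.72 show a scaling of each array. Of 22690 sets, 64 controls were removed. Symbols came from the array's annotation: 20380 sets had 1 symbol, 691 several and 1555 none. The offset 25 was added before log2. A limma 3.58.1 (R 4.3.3) fit of 6 group means on 17 arrays (11 residual degrees of freedom) used a trended prior, with Benjamini-Hochberg adjustment within each contrast. The 40% of sets with the lowest mean log2 signal (limit 7.38) were left out, which removed Gata3 and 1 Gata2 set; their values are from the same fit without the filter. The fit was tested on simulated data. Exact permutation tests were enumerated in Python 3.11.15 with numpy 2.4.6, and scipy 1.17.1 gave the ranks. Every probe set of the members was named in every contrast, up to 4 genes per list by the smallest p in the mean regional contrast and 2 by that in the oculomotor genotype contrast, and 3 genes by likeness. The members and lists were chosen with earlier results of these data known, so their counts against all sets are a description. The number of arrays limits the precision. Alternatives changed the scaling, offset, filter, trend, call rule, block and arrays.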

Additional observations from a re-analysis of the deposited data

Results flagged for a closer look

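The change of Slc6a4 from 6 to 10 weeks in mutants differed between the regions by 1.267 on the log2 scale (SE 0.25; limma adjusted p = 0.0454), which the test of that difference itself picked out. The change was 1.26 in the oculomotor nucleus and -0.01 in spinal cord, where every signal lies below the offset of 25. On this scale the spinal change is therefore held near 0, and the difference restates the oculomotor change. It was 1.20 with an offset 4 times larger (limma adjusted p = 0.0315), 1.27 without the filter (0.0751) and 1.15 without both high-prolactin arrays (0.111).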

How the results depend on the processing

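The regional calls of the tested sets held under quantile normalization, median centring, both other offsets, no trend, and without the 2 high-prolactin arrays. A filter of 60% left only Ddc and the brighter Gata2 set tested, so 2 sets were called in 6-week mutants, 1 in controls, 2 in 10-week mutants and 2 in the mean. With all 18 arrays, 2 were called in controls. The genotype count in the oculomotor nucleus was 2 with quantile normalization, 3 with the arrays of the contrast alone, and 0 without the filter, with the filter of 60%, without both high-prolactin arrays and with either 2-fold rule. The age count there was 2 with an offset 4 times larger and 0 with the filter of 60%, the arrays of the contrast alone or without the high-prolactin arrays. In spinal cord it was 1 with floored values and with the filter of 60%. The count for the age difference between regions was 0 without the filter, with the filter of 60%, with the arrays of the contrast alone and without the high-prolactin arrays. Leaving out each array in turn gave 0 to 1 for these 3 oculomotor counts. Relations on deviations from group means numbered 0 rather than 2, as did those without the high-prolactin arrays, an alternative chosen after seeing the data. With so few orders within groups, a single relation could not have passed adjustment alone, so the count on deviations decides nothing. The cause of these shifts was not tested, except where fewer sets or arrays entered.

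No strong pairing by replicate number was seen: of 40 same-numbered pairs 6 deviated together at over 0.1 (range -0.102 to 0.13). Pairs with different numbers were not compared, and whether same-numbered samples shared an animal was not tested. With the replicate block the count for the age difference between regions was 0; the other counts kept to within 1.5 times, and the dimmer Gata2 set was called in controls (1.29) and 10-week mutants (1.12).

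Of 1197 alternative values for single sets, 42 changed sign, all from changes that were not called, and 10 of 100 relations did, and none of 12 ratio differences. With all 18 arrays, the spinal genotype change was -1.30 for Slc6a4, -0.09 and -0.78 for Gch1, -0.39 for Ddc, -0.56 for the dimmer Gata2 set and -1.34 for Gata3. The genotype difference between regions then was 0.45 and 1.08 for Gch1, 0.67 and -0.33 for the dimmer and brighter Gata2 sets, and 1.48 for Gata3. That difference was 0.002 and 0.054 for Gch1 and 0.061 for Gata3 with quantile normalization, 0.041 for Gata3 with median centring, 0.15 for Gata3 with floored values, 0.006, 0.021 and 0.071 for Gch1 and Gata3 with an offset 4 times larger, and 0.015 for Gata3 without the high-prolactin arrays.

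Leaving out each array gave, for the genotype difference between regions, -0.35 to 0.044 and -0.22 to 0.071 (Gch1), -0.61 to 0.25 and -0.053 to 0.38 (Gata2 dimmer, brighter) and -0.23 to 0.27 (Gata3). For the spinal genotype change it gave -0.011 to 0.22 (Slc6a4), -0.041 to 0.46 (Ddc) and -0.14 to 0.71 (dimmer Gata2). For the oculomotor genotype change it gave -0.065 to 0.43 (Gata3) and -0.038 to 0.19 (dimmer Gata2). With age it gave -0.089 to 0.41 (Gata3, oculomotor), -0.50 to 0.095 (Gata3, spinal), -0.67 to 0.18 (dimmer Gata2, spinal), -0.16 to 0.08 (Slc6a4, spinal) and -0.21 to 0.012 (brighter Gata2, between regions). The regional change of the dimmer Gata2 set in 6-week mutants was -0.27 to 0.54. Without the 2 farthest arrays r was -0.366, -0.0876 and -0.0671 for Gata3 with Slc6a4, Ddc and Gch1, and 0.0996 for Ddc with Th. Without the high-prolactin arrays it was -0.132 for Gata3 with Gch1. Within groups it was -0.0748 and -0.0152 for Gata3 with Gch1 and Gata2, and 0.172, 0.399 and 0.163 for Th with Slc6a4, Ddc and Gata2.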
